A study of Drosophila melanogaster with 8 samples.

Results

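The mitochondrial ribosomal protein genes of Drosophila melanogaster were followed in asense mutant neural progenitors. They were taken as the probes whose annotated gene symbol begins with mRpL or mRpS, the prefixes for the large and the small subunit of the mitochondrial ribosome. The rule matched 70 of 14569 probes. Of these, 68 measure 1 gene each and make up the 68 members, 43 of the large and 25 of the small subunit, with 1 probe per gene. The other 2 probes are annotated to both mRpL47 and Rlb1 and were kept apart. A value in at least 4 of 5 mutant and wild-type pairs was required, which 66 of the 68 genes met, each of them in all 5 pairs. Below that minimum were mRpL42, with values in 3 pairs (-0.24, -0.80 and -0.68), and mRpL45, with a value in 1 pair (-0.05). The genes mRpL14, mRpL34, mRpL53 and mRpS21 were not analysed here.

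The mitochondrial ribosome translates the few messenger RNAs encoded by mitochondrial DNA, which specify core subunits of the respiratory chain and of ATP synthase. All of its proteins are encoded in the nucleus, made on cytosolic ribosomes and imported. Some descend from bacterial ribosomal proteins, and others have no bacterial ribosomal counterpart. In Drosophila, neural stem cells called neuroblasts divide asymmetrically to give ganglion mother cells. In larval brains, mitochondrial respiration is known to affect neuroblast proliferation.

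Cells called mutant were ase1/ase1, with both copies of asense, a proneural transcription factor gene, in the ase1 form. Their controls, labelled wild type, carried ase1 over the FM7-KrGFP balancer chromosome, so ase1 was present in both groups and the controls were heterozygous. Every sample held neuroblasts and ganglion mother cells taken from the ventral nerve cord at embryonic stage 11, from embryos kept at 25 °C. Each RNA sample came from 50 to 100 lysed cells and was amplified by PCR before labelling. Mutant and control RNA were set against each other directly on 8 arrays with 2 colours, which form 5 pairs numbered 1, 3, 4, 5 and 6. Pairs 1, 4 and 5 each had an array a and an array b, read here as repeats of the pair, and their values were averaged. Mutant RNA carried Cy5 in pairs 1 and 3 (3 arrays) and Cy3 in pairs 4, 5 and 6 (5 arrays). No label states whether pairs came from separate embryos, so a p-value measures the spread between these pairs, part of which may be technical.

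Every value below is a log ratio of mutant over wild type, read as log2, so a negative value is a lower signal in the mutant. Absolute levels cannot be read from such ratios, and in a small bulk sample fewer cells of a type and less RNA per cell cannot be told apart. The direction is likely rather than stated. The gene asense (ase) itself lay between -6.50 and -4.81 where mutant RNA carried Cy5 (3 arrays) and between -6.49 and -5.74 where it carried Cy3 (5 arrays), so its sign did not turn with the dyes. An exact 0 was taken as not measured. The arrays held 8200 to 9276 measured probes, and their number limits the precision.

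In mutant cells 14 of the 66 tested mitochondrial ribosomal protein genes fell and 1 rose, and 51 did not pass the test. The test was limma's moderated test of the mean against 0 across all 8295 features, with a Benjamini-Hochberg adjusted p below 0.05 as the threshold. Lower calls were 21.2% of the tested members and 11.3% of all features. Higher calls were 1.52% of the members and 6.97% of all features. Counted in either direction, 22.7% of the members and 18.3% of all features passed, so the share that passed was near the background and the split by direction was not. With each array centred on the median of its measured values, 8 members fell and 4 rose (12.1% and 6.06% of those tested), against 8.52% and 9.7% of all features. The 4 higher members under that centring were mRpS9, mRpS29, mRpL10 and mRpL19.

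The count of members that fell depended on the pairs. Without pair 1 it was 9 (13.6% of the members tested, against 7.08% of all features), without pair 3 it was 5 (7.58%, against 8.04%), and without pair 4 it was 6 (9.09%, against 5.69%). Without pair 5 it was 4 (6.06%, against 4.3%), and without pair 6 it was 14 (21.2%, against 10.3%). The calls of mRpL21, mRpS18A and mRpS24 were lost whichever single pair was left out. Those of mRpL44, mRpL46 and mRpS14 were lost in 4 of these 5 fits. Each of these genes also lost its call with the arrays centred. With all 8 arrays in the fit and the pair as a random block, 23 members fell and 4 rose (34.8% and 6.06% of the members, against 16.9% and 10.1% of all features).

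Most log ratios were small. The median log ratio of the 66 genes was -0.25, and that of all features was -0.07. The mean was below 0 for 49 members (74.2%), against 57.4% of all features. All 5 pairs were below 0 for 23 members (34.8%, against 21.3% of all features in every measured pair), and all 5 were above 0 for 8 members (13.1% of all features). The members' values ran from -1.47 for mRpS6 to 0.97 for mRpS9, and 38 of them lay between -0.35 and 0.35. The SD over pairs had a median of 0.28 for the members and 0.35 for all features.

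**Figure D1:**
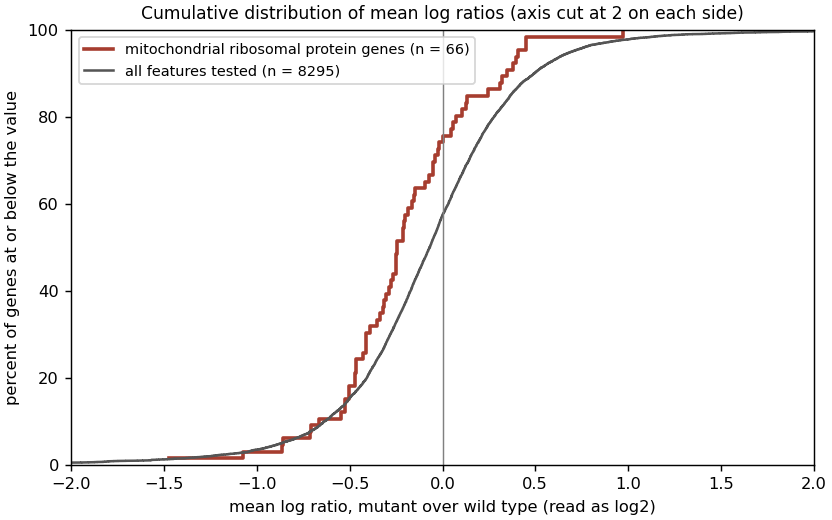
Cumulative share of genes (vertical axis, percent) by mean log ratio of mutant over wild type (horizontal axis, log2) for the 66 tested mitochondrial ribosomal protein genes and all 8295 features. The curve of the members lies to the left around its median of -0.25, next to -0.07 for all features, while both curves run close together at the lowest values.

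**Figure D2:**
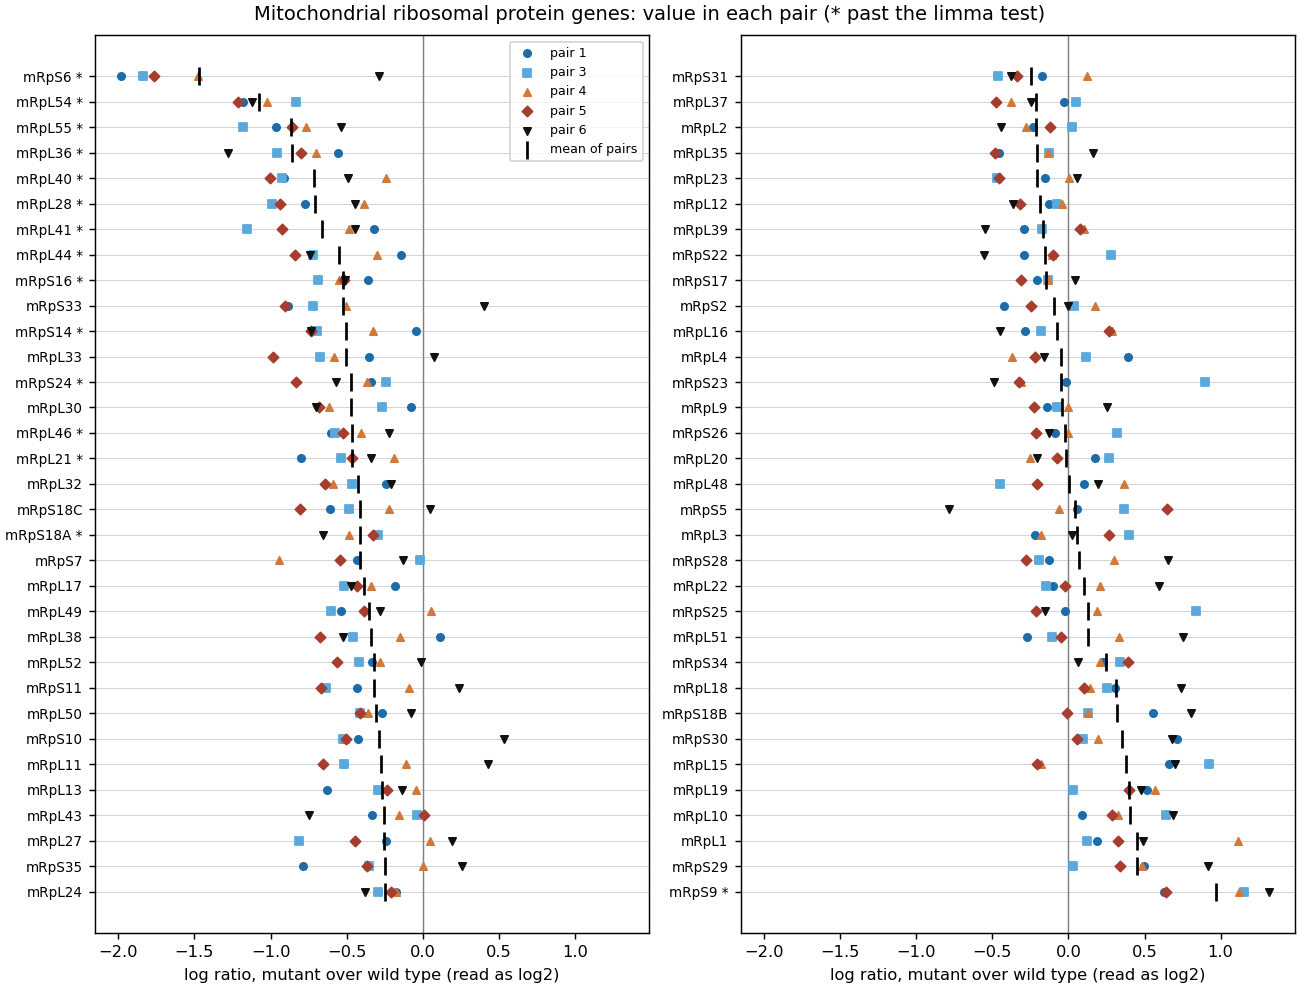
Log ratio of mutant over wild type (horizontal axis, log2) of each of the 66 tested genes in the 5 pairs, sorted by the mean of pairs (bar), with a star on the 15 genes past the limma test. The 14 starred genes with lower signal in the mutant have all 5 pairs below 0, and mRpS9 has all 5 above 0.

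Subunits were assigned here by the prefix of the symbol alone. In the small subunit 5 of 25 genes fell (mRpS6, mRpS16, mRpS14, mRpS24 and mRpS18A), 1 rose (mRpS9) and 19 did not pass. The median was -0.16. The largest fall of any member was in mRpS6 (locus tag Dmel_CG15016, arm 3L), the homologue of bacterial S6, which sits on the platform of the small subunit beside S18. Its log ratios were -1.99, -1.84, -1.48, -1.77 and -0.29 in pairs 1, 3, 4, 5 and 6, a mean of -1.47 ± 0.69 (SD, n = 5, limma adjusted p = 0.00838). Pairs 1, 3, 4 and 5 were close together and pair 6 stood well above them, still below 0. Without pair 6 the mean was -1.77.

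The single increase was in mRpS9 (Dmel_CG2957, arm 3R), whose bacterial homologue S9 reaches the peptidyl-tRNA bound in the small subunit. It had log ratios of 0.63, 1.15, 1.12, 0.64 and 1.32 in pairs 1, 3, 4, 5 and 6, a mean of 0.97 ± 0.32 (SD, n = 5, limma adjusted p = 0.006608). Every pair was above 0, and the lowest of them lay above the mean of every other member. The next highest small subunit genes did not pass. They were mRpS29 (0.45, adjusted p = 0.0705), a GTP-binding protein whose human form DAP3 is linked to cell death, mRpS30 (0.35) and mRpS18B (0.32).

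The homologue of bacterial S16, mRpS16, whose loss in people causes a mitochondrial translation defect, had the smallest SD over pairs of the called members, at -0.36, -0.69, -0.55, -0.52 and -0.51 in pairs 1, 3, 4, 5 and 6. Its mean was -0.53 ± 0.12 (SD, n = 5, limma adjusted p = 0.0204). Its repeat arrays were far apart, at -0.05 on array 4a and -1.05 on array 4b, and at -0.03 on array 5a and -1.01 on array 5b. Both mRpS14 (-0.51 ± 0.31, adjusted p = 0.04885) and mRpS24 (-0.47 ± 0.24, adjusted p = 0.04497), homologues of bacterial S14 and S3 in the head of the subunit, passed narrowly. In mRpS14 the pairs ran from -0.73 to -0.04. The bacterial protein S18 has 3 relatives here. Of these mRpS18A fell (-0.41 ± 0.16, adjusted p = 0.04846), mRpS18C had a like mean of -0.42 (adjusted p = 0.09349, above 0 in pair 6), and mRpS18B was at 0.32. In the human mitochondrial ribosome the counterpart of mRpS18A lies in the large subunit in spite of its name. A further small subunit gene, mRpS33, averaged -0.52 without passing (adjusted p = 0.1068), since its value was 0.40 in pair 6 and -0.91 to -0.50 in the other pairs.

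In the large subunit 9 of 41 tested genes fell, 0 rose and 32 did not pass, with a median of -0.25. At an unadjusted p below 0.05 the 66 members of both subunits held 24 lower and 6 higher genes, where 22% of all features were lower and 14.1% higher. The largest fall in the large subunit was in mRpL54 (Dmel_CG9353, arm 2R), a protein with no bacterial ribosomal counterpart. It had -1.18, -0.84, -1.03, -1.22 and -1.12 in pairs 1, 3, 4, 5 and 6, a mean of -1.08 ± 0.15 (SD, n = 5, limma adjusted p = 0.001969). All 8 of its arrays were between -1.44 and -0.84. This gene was also the 1 member called lower from pairs 4, 5 and 6 alone, where 1.86% of all features were lower, and leaving out any 1 pair kept its mean between -1.14 and -1.04.

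The next in size were homologues of small bacterial proteins. mRpL55 (Dmel_CG14283, arm 3R), related to bacterial L31, was at -0.97, -1.18, -0.77, -0.86 and -0.54 in pairs 1, 3, 4, 5 and 6, with a mean of -0.86 ± 0.24 (SD, n = 5, limma adjusted p = 0.006714). For mRpL36 (Dmel_CG18767, arm 3L), whose bacterial homologue is among the smallest ribosomal proteins, the pairs were -0.56, -0.96, -0.70, -0.80 and -1.28, with a mean of -0.86 ± 0.28 (adjusted p = 0.008164). Pair 6 held the value nearest to 0 for mRpL55 and the one farthest from 0 for mRpL36, so it did not shift the members alike. The homologue of bacterial L28, mRpL28, averaged -0.71 ± 0.28 (adjusted p = 0.01494), and mRpL21, the homologue of bacterial L21, -0.47 ± 0.23 (adjusted p = 0.04471).

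Of the large subunit proteins without a bacterial counterpart, mRpL40 and mRpL46 belong, from the human structure, to the central protuberance, the part of the subunit that faces the head of the small one. The log ratio of mRpL40 was -0.91, -0.92, -0.24, -1.01 and -0.49 in pairs 1, 3, 4, 5 and 6, a mean of -0.72 ± 0.33 (SD, n = 5, limma adjusted p = 0.0182), with 0.12 on array 4a, above 0 there and below 0 on the other 7 arrays. mRpL46 fell less (-0.47 ± 0.16, adjusted p = 0.03354). Other proteins of that region were mRpL38 at -0.34 and mRpL48 at 0.00, neither past the test. mRpL41 (-0.66 ± 0.36, adjusted p = 0.0259), whose human form has been linked to growth arrest, and mRpL44 (-0.55 ± 0.31, adjusted p = 0.03833), a protein with a ribonuclease III-like fold mutated in human cardiomyopathy, also fell. In both, pair 1 was nearest to 0 (-0.32 and -0.14).

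Large subunit genes above 0 did not reach the threshold. The highest were mRpL1 (0.45), homologue of the bacterial stalk protein beside the exit site for transfer RNA, mRpL10 (0.41), which holds the L12 stalk, mRpL19 (0.40) and mRpL15 (0.38), with adjusted p between 0.06688 and 0.2118 in limma. The partners of mRpL10 at the factor-binding stalk, mRpL11 (-0.28) and mRpL12 (-0.19), lay below 0 and did not pass. Proteins around the exit of the nascent chain, mRpL22 (0.11), mRpL23 (-0.20) and mRpL24 (-0.25), did not pass either. mRpL24 had the smallest SD of any member, 0.09, and was below 0 in each pair, from -0.38 to -0.18, while arrays 1a and 4a were above 0 (0.06 and 0.04). Over both subunits, 5 lower and 4 higher members had adjusted p between 0.05 and 0.1. The lower ones were mRpL32, mRpL30, mRpL17, mRpL33 and mRpS18C, and the higher ones mRpL19, mRpS29, mRpL10 and mRpL1.

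**Figure D3:**
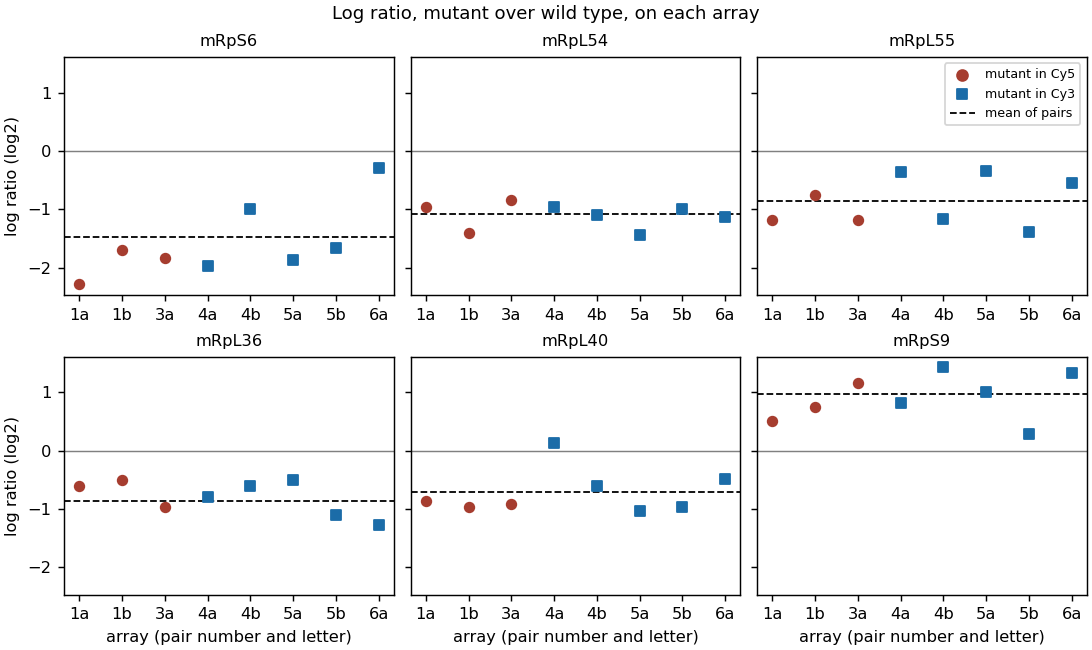
Log ratio of mutant over wild type (vertical axis, log2) on each of the 8 arrays (horizontal axis) for 6 members, with the mutant in Cy5 as circles, the mutant in Cy3 as squares and the mean of pairs as a dashed line. The 5 lower genes keep their sign on every array except mRpL40 on array 4a (0.12), and mRpS9 is above 0 on all 8.

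The members varied alike between most pairs. Across the 66 genes the values of any 2 of pairs 1, 3, 4 and 5 correlated at 0.581 to 0.787 (6 couples), while pair 6 correlated with them at 0.404 to 0.600 (4 couples). Over all features the same ranges were 0.422 to 0.648 and 0.430 to 0.530. These correlations run across genes that share arrays and amplification, and genes are not independent replicates. In pair 6 39 of the 66 members were below 0, against 45 to 53 in the other pairs. There were 10 members above 0 in pair 6 and below 0 in the other 4 pairs, among them mRpS33, mRpS10, mRpL11 and mRpL33. The shares of all features with these patterns were not counted. In pair 6 the median was 0.20 for respiratory chain genes and 0.58 for cytosolic ribosomal protein genes. In the other pairs these medians ran from -0.37 to -0.17 and from -0.28 to 0.05. The members' median was -0.24, -0.25, -0.15, -0.33 and -0.14 in pairs 1, 3, 4, 5 and 6, and that of all features -0.07, -0.04, -0.08, -0.13 and -0.05. It was below that of all features in each pair, with a difference of -0.07 in pair 4 and -0.21 in pairs 3 and 5.

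**Figure D4:**
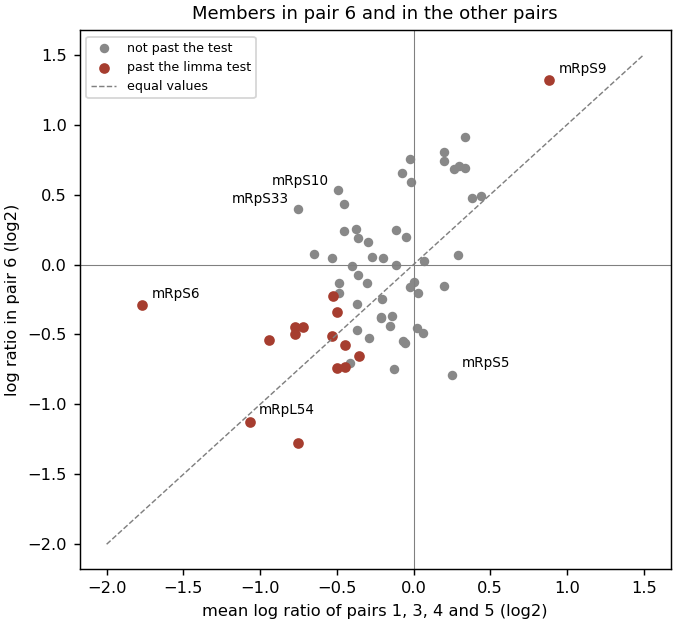
Log ratio in pair 6 (vertical axis, log2) against the mean log ratio of pairs 1, 3, 4 and 5 (horizontal axis, log2) for the 66 members, with those past the limma test in red and the line of equal values dashed. mRpS6, at -0.29 in pair 6, and mRpS10, at 0.53, lie above the line, while mRpL54 (-1.12) lies close to it.

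Called members had every pair on the same side of 0, so their means could not differ in sign between the dye orientations. A term for orientation in the fit ended the calls of mRpL44, mRpS14, mRpS18A and mRpS24. It left 10 lower members (8.22% of all features were lower). In pairs 1 and 3, with the mutant in Cy5, the median over members was -0.23, and in pairs 4, 5 and 6, with the mutant in Cy3, it was -0.20. The sign matched between both orientations for 53 of 66 members, and the share over all features was not counted. mRpS6 averaged -1.91 with the mutant in Cy5 and -1.18 with the mutant in Cy3, mRpL54 -1.01 and -1.12, and mRpS9 0.89 and 1.03. Repeat arrays of a pair differed among the members by more than the size of most log ratios. Across members, arrays a and b correlated at 0.517 in pair 1, 0.416 in pair 4 and 0.424 in pair 5, with an SD of the difference between 0.507 and 0.583. Of the members with values on both arrays, 59.1% to 69.8% had the same sign on both. Among members called lower, mRpL28, mRpL40, mRpL44, mRpS14 and mRpS24 were above 0 on array 4a and below 0 on array 4b. The widest of these was mRpS14, at 0.23 and -0.89. mRpS18A was at 0.13 on array 1a and -0.75 on array 1b. The other lower members were below 0 on every array. Over all measured probes, arrays a and b correlated at 0.282 in pair 1, 0.289 in pair 4 and 0.413 in pair 5. Arrays of different pairs correlated at 0.278 (1a and 6a) to 0.615 (4b and 5b). Repeat arrays of a pair were therefore no more alike than arrays of different pairs.

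The members were also set side by side by descent and by place in the genome. Over all features 11.3% fell and 6.97% rose. Of 40 tested genes with a bacterial ribosomal homologue 8 fell (20%) and 1 rose (2.5%), with a median of -0.23. Among 26 tested genes listed as without one 6 fell (23.1%) and 0 rose, with a median of -0.25. That list holds mRpS18A, which fell, and mRpS18B, although both are relatives of bacterial S18. On the X chromosome, where the controls carry the balancer, 1 of 10 members fell (mRpS14, 10% of the members against 10.7% of all features on the X) with a median of -0.21. On the autosomes 13 of 56 fell (23.2% against 11.6% of all autosomal features) and 1 rose, with a median of -0.25. The difference between these groups was not tested. Of 27 tested genes lying next to a called member in the Release 6 annotation, 4 were called the same way and 0 the other way. They were rept beside mRpL21, CG2021 beside mRpL46, CG15653 beside mRpL54 and narya beside mRpS14. All 4 were lower, a share of the 27 near the 11.3% of all features that were lower. In that annotation an adjacent gene overlaps 7 of the 15 called members (mRpL28, mRpL41, mRpL44, mRpS14, mRpS16, mRpS24 and mRpS9) and 38 of the 66 tested members. Whether the probes separate overlapping genes is not given in the sources used here. None of the adjacent genes that overlap those 7 passed the limma test, among them the mitochondrial arginyl-tRNA synthetase gene ArgRS-m beside mRpS9, at -0.36.

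Of the probes annotated to both mRpL47 and Rlb1, one averaged -0.71 ± 0.89 and the other -0.04 ± 0.24 (SD, n = 5), and neither passed (limma adjusted p = 0.1359 and 0.8522). The first ran from -1.92 in pair 3 to 0.58 in pair 1, with 1.51 on array 1a and -0.36 on array 1b. No value was given to mRpL47 from them. The gene bonsai, which encodes the mitochondrial homologue of bacterial S15 under another name, was at 0.16 ± 0.18 and did not pass (adjusted p = 0.3826).

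Other genes of mitochondrial gene expression were counted in lists of their own. Of 11 translation factor and amidotransferase genes 2 rose (18.2%, against 6.97% of all features) and 0 fell (against 11.3%), with a median of 0.29. GatB, a subunit of the enzyme that makes glutaminyl-tRNA in mitochondria, had 0.87, 0.89, 1.46, 0.76 and 1.27 in pairs 1, 3, 4, 5 and 6, a mean of 1.05 ± 0.30 (SD, n = 5, limma adjusted p = 0.00457). The GTPase gene mRRF2, which acts in ribosome recycling, rose by 0.91 ± 0.46 (adjusted p = 0.01547). The elongation factor genes mEFTu1, mEFTu2 and mEFTs were each at 0.42 to 0.43 and did not pass (adjusted p between 0.06361 and 0.07738). Of the 11 factors 1 had a mean below 0, mEFG1 at -0.20. GatB passed whichever single pair was left out, and mRRF2 did not pass without pair 4 (adjusted p = 0.05726). With all 8 arrays and a random block, or after centring, 5 factors rose, the added ones being the 3 elongation factor genes.

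Among 10 tested tRNA synthetases 1 rose (10%, against 6.97% of all features) and 0 fell (against 11.3%), with a median of -0.25. The gene that rose was AspRS-m (0.45 ± 0.23, limma adjusted p = 0.04927). AspRS-m lost its call whichever single pair was left out (adjusted p between 0.08184 and 0.1207), and also with the orientation term (0.07329) and with the random block (0.09741). Of 14 genes of mitochondrial DNA and RNA upkeep the protease gene Lon rose (0.46 ± 0.20, adjusted p = 0.04108) and the RNA-binding protein gene SLIRP2 fell (-0.86 ± 0.54, adjusted p = 0.02689), with a median of -0.06. Each was 7.14% of that list, against 6.97% of all features higher and 11.3% lower. Lon lost its call whichever single pair was left out (adjusted p between 0.06485 and 0.1408), and SLIRP2 passed in 1 of those 5 fits, the one without pair 4. Both missed the threshold with the orientation term.

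Of 15 genes of protein import and folding 5 fell and 0 rose, with a median of -0.31. They were the matrix chaperone gene Hsc70-5 (-0.78 ± 0.46, adjusted p = 0.02495), the receptor complex subunit gene Tom7 (-0.76 ± 0.50), the small chaperone genes Tim9a (-0.73 ± 0.30) and Tim10 (-0.43 ± 0.17), and the inner membrane channel gene Tim17b (-0.53 ± 0.09). Leaving out pairs 1, 3, 4, 5 and 6 in turn, 1, 3, 2, 0 and 3 of the 15 fell, and Tim10 passed in none of these fits. Of 62 respiratory chain and ATP synthase genes 12 fell (5 without pair 5, to 15 without pair 6) and 1 rose, with a median of -0.15. Of 37 cytosolic ribosomal protein genes 3 fell (1 without pair 5, to 4 without pair 6) and 1 rose, with a median of 0.09. Both lists include genes named as relatives of others, such as RpL7-like and COX4L. The lower cytosolic genes were RpL17, RpL37-2 and RpS10a, and COX4L and ND-B14.5AL were among the lower respiratory ones. The lower share was 33.3% for import, 19.4% for the respiratory chain and 8.11% for the cytosolic ribosome, against the 11.3% of all features. These differences between lists were not tested.

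**Figure D5:**
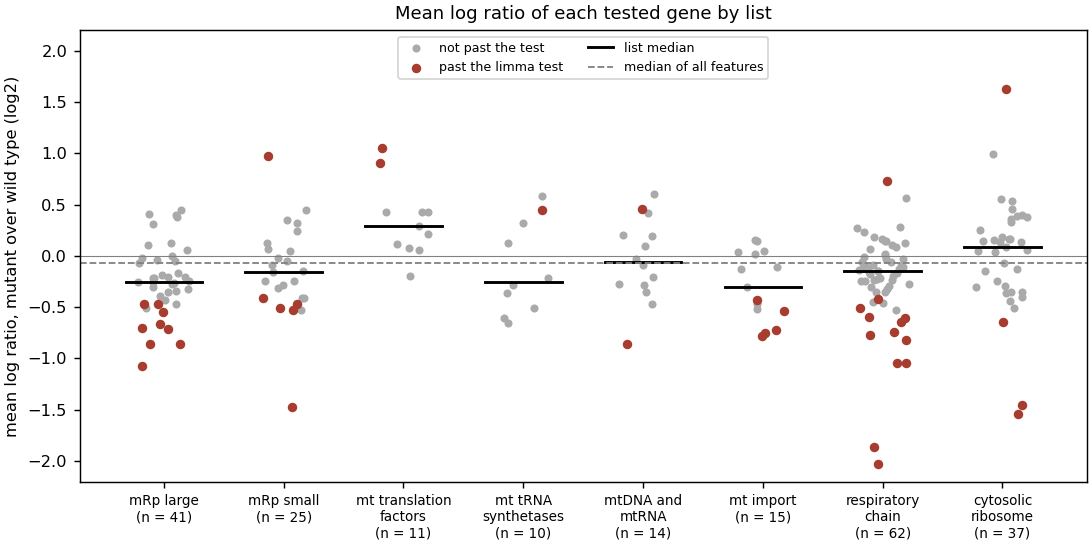
Mean log ratio of mutant over wild type (vertical axis, log2) of each tested gene in 8 lists, with genes past the limma test in red, the list median as a bar and the median of all features (-0.07) dashed. The large and small subunit medians are -0.25 and -0.16, the translation factor median is 0.29 and the cytosolic ribosome median 0.09.

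Cell type markers moved in the same comparison. Of 8 neuroblast markers ase, klu and mira fell and 5 did not pass, dpn (-0.44), esg (-0.33), wor (-0.11), insc (-0.03) and sna (0.52). Since ase is the mutated gene itself, its fall gives no measure of neuroblast content. Leaving out single pairs, klu passed only without pair 5 or pair 6, and mira only without pair 1, pair 3 or pair 6. Calls were lower for 3 of 5 glial, 2 of 4 neuronal, 2 of 3 mesoderm or muscle and 2 of 4 hemocyte markers, and higher for 1 neuronal, 1 hemocyte and 2 of 3 ectoderm markers. Over all features 11.3% were lower and 6.97% higher, and these lists are very short. Leaving out a pair lowered most of these counts, and none of the neuronal markers was lower in any of those 5 fits. List medians were -0.39 for neuroblasts (ase included), -1.20 for glia, -0.22 for neurons, -0.75 for muscle, -0.42 for hemocytes and 0.52 for ectoderm. Summed levels and undetected markers cannot be given from ratios. The part of these markers in the lower mitochondrial ribosomal protein values was not tested.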

How the data were processed

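RNA of ase1/ase1 cells and of ase1/FM7-KrGFP cells was compared on 8 arrays. The authors deposited log ratios, read here as log2, for 14569 probes. Their log base, normalization, centring and direction are not stated in the labels or the file header. The largest size, 7.43, is above the 4.82 that base 10 allows on a 16-bit scan, and a natural log remains possible. Every column has a median of 0, and 36.33% to 43.72% of its values are exactly 0, taken as not measured. The medians of measured values were -0.18 to -0.02.

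Probes were named from the platform annotation, with symbols looked up in RefSeq (assembly Release 6 plus ISO1 MT; all 68 members matched, 0 changed). Probes of a gene were averaged, then arrays a and b. Features with values in at least 4 pairs were tested with limma 3.58.1 in R 4.3.3, two-sided, with a Benjamini-Hochberg adjusted p below 0.05 as the threshold, and the procedure was checked on simulated data. Alternatives changed the repeat arrays used, the dye orientation, direction, centring, scaling, moderation, array weights, probe averaging, missing values, threshold, bonsai as a member and the pairs left in. Repeat arrays and pairs share their numbers because each array holds a mutant and a control sample of 1 number, so the pairing is within the ratio.

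The members, lists and named genes were chosen with earlier results of these data known. The rule for names took ase, every called member, the 8 highest and 8 lowest members, bonsai and called genes of 4 mitochondrial lists. Other genes were named after their values were seen.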

Additional observations from a re-analysis of the deposited data

Results flagged for a closer look

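Among 79 sets of pair values examined (the 66 members, the other named genes and the members' median), 1 had a pair far from all others. For mRpS10, homologue of a bacterial protein in the head of the small subunit, the log ratio was 0.53 in pair 6, and the nearest other pair was at -0.42. Chance alone gives about 1 in 20 such sets, or 3.95 of 79.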

How the results depend on the processing

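No member past the limma test changed direction in the 20 settings that kept the reading of mutant over wild type. Leaving out pairs could not turn a sign, since every pair of each called member lies on the same side of 0. None of the 15 kept its call in all 20, and each lost it at least with pairs 1 and 3 alone, where limma called 0 of 8082 features (1326 at an unadjusted p below 0.05). The calls of mRpL54, mRpL36, mRpL55, mRpS6 and mRpS9 held whichever single pair was left out, and the other 10 lost theirs in at least 1 such fit. Leaving out pairs in turn, 4 (no pair 5) to 14 (no pair 6) members were lower, and those 14 shared 9 genes with the 14 reported. In each of these fits 1 member was higher (2.89% to 5.49% of all features), all features called numbered 597 to 1309, and the members' median was -0.26 to -0.22. The replicate block (8 arrays, pairs as random blocks) gave 23 lower and 4 higher members, and array weights gave 23 (16.5% of all features) and 3 (9.1%). With array a alone 3 members (3.64% of all features) were lower and limma called 474 features, and with array b (chosen after the data were seen) 3 were higher (7.06%). Pairs 1 and 3 alone gave 0 features, 0 higher and 0 lower members, and pairs 4, 5 and 6 alone gave 259, 0 and 1. After centring the arrays 8 were lower and 4 higher, and the members' median was -0.17, with that of all features at 0.01. Keeping exact 0 as a value gave 345 features, 3 lower (1.48% of all features) and 0 higher members. More features entered in that setting and many of their values are 0, but the cause of the smaller counts was not tested. At an adjusted p below 0.1 limma called 2490 features, and 5 members were higher (11.7%). Every other count of calls among these settings was within 1.5 times the reported one, and where none is given the cause was not tested. Adding bonsai left the counts as they were, and tko was not analysed here.

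Read as Cy5 over Cy3, limma called 0 features (117 at an unadjusted p below 0.05), 0 higher and 0 lower members, and the members' median was 0.00 (-0.0017). That reading turns pairs 4, 5 and 6 round against pairs 1 and 3, and 28 of the named genes changed sign. The value was 1.34 for ase, 0.27 for mRpL54, 0.0047 for mRpL55, 0.25 for mRpL36, 0.0021 for mRpL28, 0.077 for mRpL41, 0.20 for mRpL44, 0.10 for mRpS16, 0.21 for mRpS14, 0.24 for mRpS24 and 0.17 for mRpS18A. It was -0.26 for mRpS9, -0.046 for mRpS18B, -0.025 for mRpS30, -0.18 for mRpL19, -0.11 for mRpL10, -0.33 for mRpL1, -0.24 for mRpS29, -0.028 for bonsai, -0.34 for mRRF2, -0.35 for GatB, -0.043 for AspRS-m and -0.14 for Lon. It was 0.13 for SLIRP2, 0.02 for Tom7, 0.055 for Tim9a, 0.12 for Tim17b and 0.33 for Hsc70-5. The arrays' number and their noise limit what could be called, and signal over background was not used here.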
